A study of Mus musculus with 4 samples.

Results

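The genes described here are 47 cell cycle and DNA replication genes, chosen for their function with earlier results of these data known. They encode cyclins and their kinases, origin licensing and helicase proteins, DNA synthesis and nucleotide supply enzymes, and mitotic proteins. The arrays carried a probe for 46 of them, 1 probe each, among 16463 transcript probes, and none was found for Cenpe. Of these probes, 32 were identified by their sequence accession, 3 by a clone name (Cdca8, Tpx2 and Cenpf) and 11 by their description alone. The Ccnb1 probe is described as a related sequence of cyclin B1, so its values may belong to another copy. Expression was measured in mouse embryonic fibroblasts (MEFs), cultured connective tissue cells, by 4 two-colour hybridisations to oligonucleotide arrays. On the 2 stable arrays, RNA of cells carrying a Dlx3 expression plasmid, labelled with Cy5, was hybridised together with RNA of cells that received an empty plasmid, labelled with Cy3. On the 2 transient arrays, RNA of Dlx3-expressing cells after 24 h of transfection (Cy5) was hybridised with RNA of control MEFs (Cy3), for which the labels name no empty plasmid. Dlx3 is a homeobox transcription factor. The plasmid promoter, the number of clones behind the stable cells and the transfected share of the transient cells are not given in the sources used here. The second array of each group is titled a biological repeat, but nothing says whether cultures were separate. P-values therefore rest on the spread between these arrays only, pooled over both groups and drawn toward the spread of all probes.

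A cell enters the division cycle when D-type cyclins with Cdk4 and Cdk6, and then E-type cyclins with Cdk2, phosphorylate the retinoblastoma protein and release E2F transcription factors. CDK inhibitors such as p27 (Cdkn1b), p57 (Cdkn1c) and the Ink4 proteins (Cdkn2a to Cdkn2d) oppose these kinases. E2F targets include the Mcm2 to Mcm7 helicase, loaded on origins by Cdc6 and Cdt1 under restraint by geminin (Gmnn), and the enzymes that make deoxynucleotides. Later in the cycle, cyclin A and cyclin B with Cdk1, switched on by CDC25 phosphatases, drive mitosis, and the DREAM and MuvB complexes with Foxm1 time the mitotic genes. The spindle checkpoint (Bub1, Mad2l1) holds back the anaphase-promoting complex and its activator Cdc20 until chromosomes are attached. Fibroblasts divide readily in culture and pass into growth arrest with rising levels of several CDK inhibitors.

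Each value below is a log2 ratio of the Dlx3 channel over the control channel on the same array, after loess normalization over the whole array. A probe was tested where it exceeded its local background by 2 background SDs on at least 2 arrays, and a call is an adjusted p under 0.05 in limma. Of the 46 probes, 44 were tested. Ccnd1 and Bub1b were not well above background: Ccnd1 passed in neither channel on any array, and Bub1b passed in the Dlx3 channel of 1 array. Of the 44, 42 exceeded background in both channels on all 4 arrays (Tpx2 did on 3, and Aurka passed on 3 in the Dlx3 channel and on 2 in the control channel), and 38 were brighter than the 95th percentile of randomized control oligonucleotides. Ccne1, Ccnf, Cdc6, Cdc45, Aurka and Kif23 were not. No spot of a tested member was saturated.

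The share of transcript spots above background was 86.9 and 87.2% in the stable hybridisations and 77.3 and 80.9% in the transient ones. Log2 ratios of the 2 arrays of a group correlated at 0.637 (stable) and 0.636 (transient), and arrays of different groups at 0.332 to 0.376. The Dlx3 probe itself had stable ratios of 0.06 and 0.23 and transient ratios of 0.14 and 0.56. It was called in neither group (adjusted p = 0.396 and 0.179 in limma) and exceeded the randomized oligonucleotides on 0 of 4 arrays, so it does not settle the labels. Of 9 fibroblast markers found, 7 were above background and Col1a1, Col1a2, Vim and Pdgfrb were brighter than the randomized oligonucleotides, while Col3a1 and Lum were not above background. Of the epithelial, blood, muscle and pluripotency markers none was that bright, and of the endothelial ones only Kdr. Tested were 7 fibroblast, 6 epithelial, 4 endothelial, 3 blood, 3 muscle and 4 pluripotency markers. Of these markers limma called 6 in the stable cells, where 22.7% of all probes were called. Each of the 6 was on a probe no brighter than the randomized oligonucleotides, and their part in the results below was not tested. Higher were the fibroblast genes Dcn (1.00) and Pdgfra (0.98), the pluripotency genes Nanog (0.72) and Sox2 (0.47) and the epithelial Krt5 (0.46), and lower was the pluripotency gene Pou5f1 (-0.53). The same dye marked the Dlx3 cells on all 4 arrays, so a dye effect of a probe stays in its ratio.

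Ratios also varied with the position of a probe on the slide, which is printed in 32 blocks. In block 29 the median log2 ratio of 465 tested probes stood at -0.40 and -0.29 in the stable hybridisations and at -0.25 and -0.35 in the transient ones, and in its neighbour block 30 the medians were -0.27, -0.19, -0.11 and -0.21. At the other end, block 20 had medians of 0.12, 0.14, 0.08 and 0.09. Bub1 and Cdc25c lie in block 29, and Kif20a, Ccne2 and Aurkb in block 26, whose medians were -0.16, -0.11, -0.08 and -0.12. Results are therefore also given with the loess curve fitted within each block (print-tip loess), which takes out such medians.

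**Figure D1:**
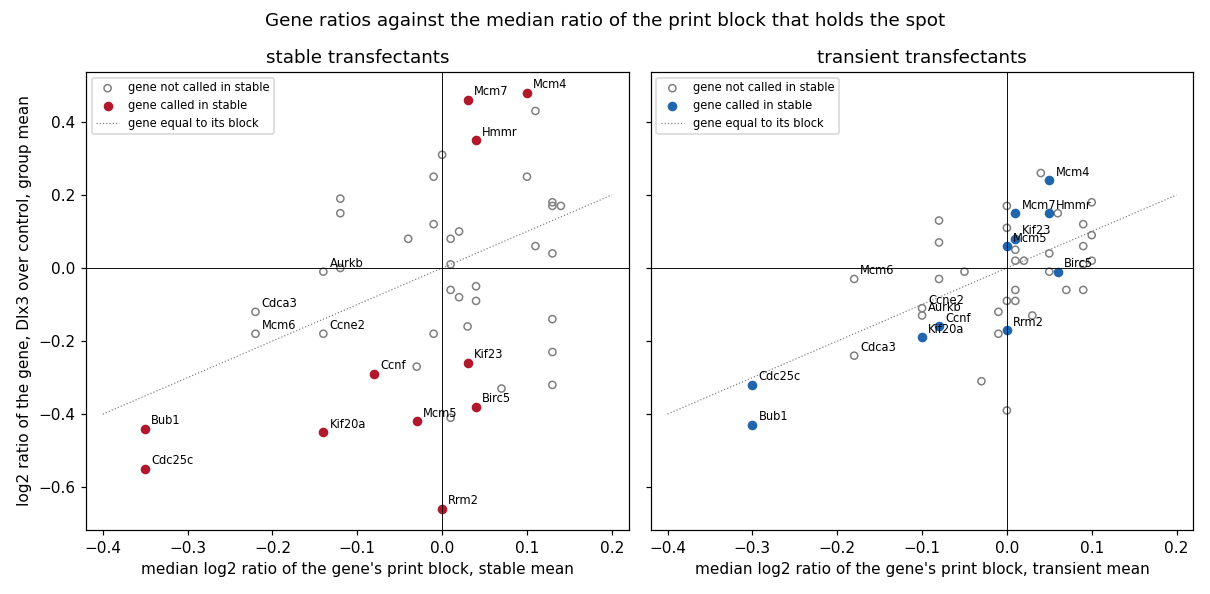
Log2 ratio of Dlx3 over control of each cell cycle gene (vertical axis, mean of the 2 arrays of a group) against the median log2 ratio of all tested probes in its print block (horizontal axis), for the stable arrays (left) and the transient arrays (right). Bub1 and Cdc25c stand at the far left, in the block of lowest median, in both panels, and Rrm2, Mcm5, Mcm7 and Mcm4 lie in blocks whose stable medians ran from -0.03 to 0.10.

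In stable Dlx3 transfectants the cell cycle genes moved in both directions and by small amounts. Of the 44 tested, 11 were called, against 22.7% of all 14611 tested probes. Mcm4, Mcm7 and Hmmr were higher, and Rrm2, Cdc25c, Kif20a, Bub1, Mcm5, Birc5, Ccnf and Kif23 were lower. That is 3 higher, against 11.6% of all probes, and 8 lower, against 11.1%. At an unadjusted p under 0.05 there were 21, against 40.0% of all probes. The median log2 ratio of the 44 was -0.05, against 0.007 over all tested probes, and their median absolute ratio was 0.18, the same as that of all probes. Both stable arrays gave the same sign for 35 of the 44 (79.5%), against 74.2% of all probes. With print-tip loess 12 were called (27.3%, against 17.3% of all probes), 4 higher and 8 lower. Rrm2, Mcm4, Mcm5, Mcm7, Birc5, Hmmr and Kif23 were called with both normalizations, 7 of 44 (15.9%) against 14.0% of all probes. RNA was taken from whole cultures, so fewer cells in a cycle phase and less RNA per cell cannot be told apart. When any transient array was left out, or the stable arrays were fitted alone, the calls were 3 (Rrm2, Cdc25c and Bub1), against 8.4% of all probes in that fit, and without the first stable array they were 16, against 29.8%. Where a stable array is left out, the lone one is assumed to vary like the transient arrays, so its p-values hold no spread of the stable cells.

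**Figure D2:**
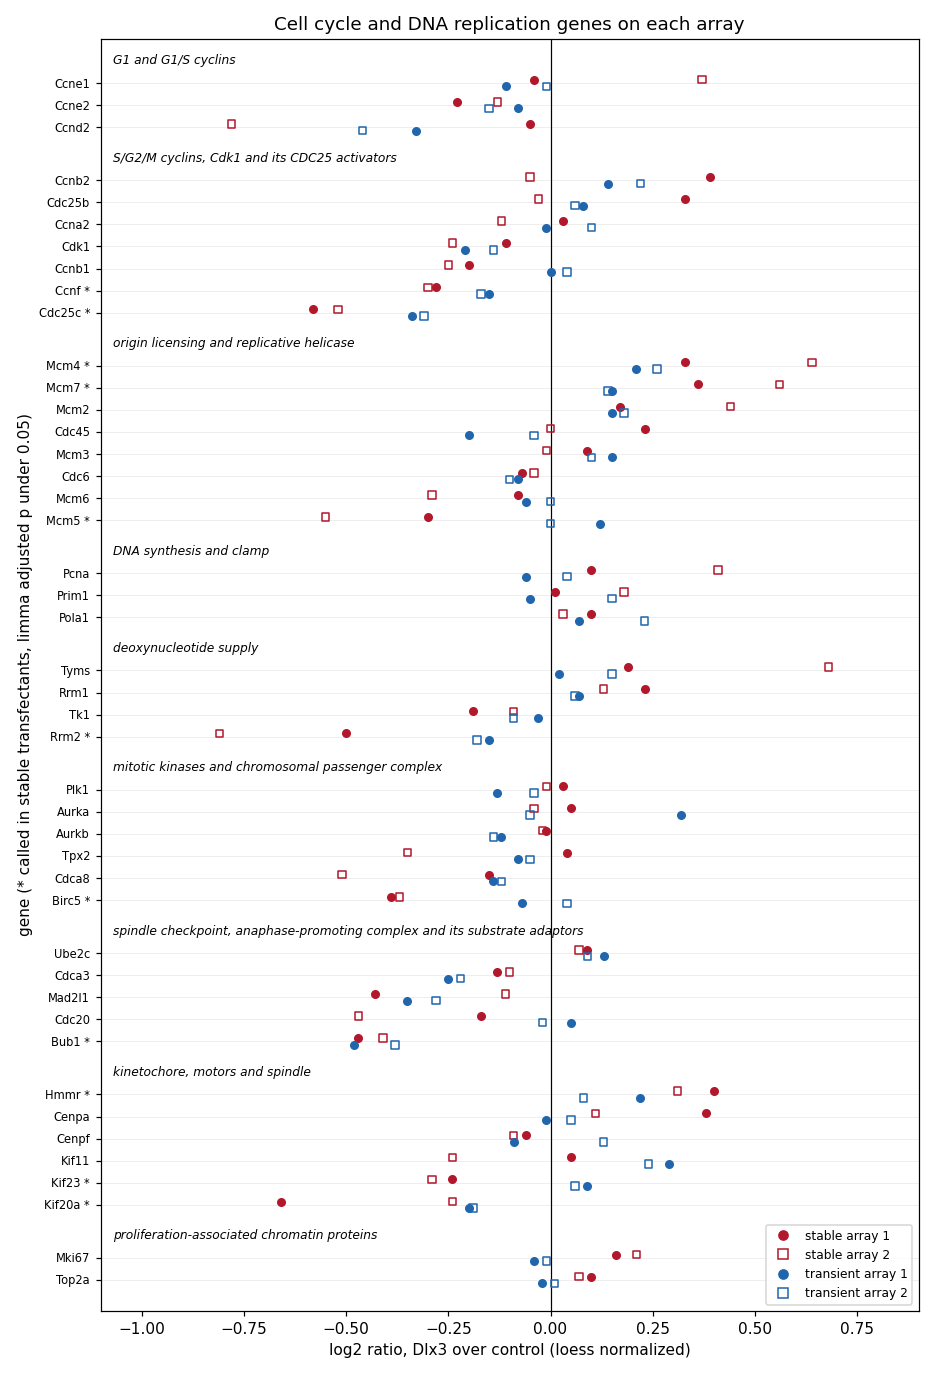
Log2 ratio of Dlx3 over control (horizontal axis) of the 44 tested cell cycle genes, ordered by role, with a point for each of the 2 stable and 2 transient arrays and a star at genes called in the stable group. Among the starred genes the lowest point is the second stable array of Rrm2 (-0.81) and the highest is that of Mcm4 (0.64), and the transient points stay nearer to 0 for most of them.

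**Figure D3:**
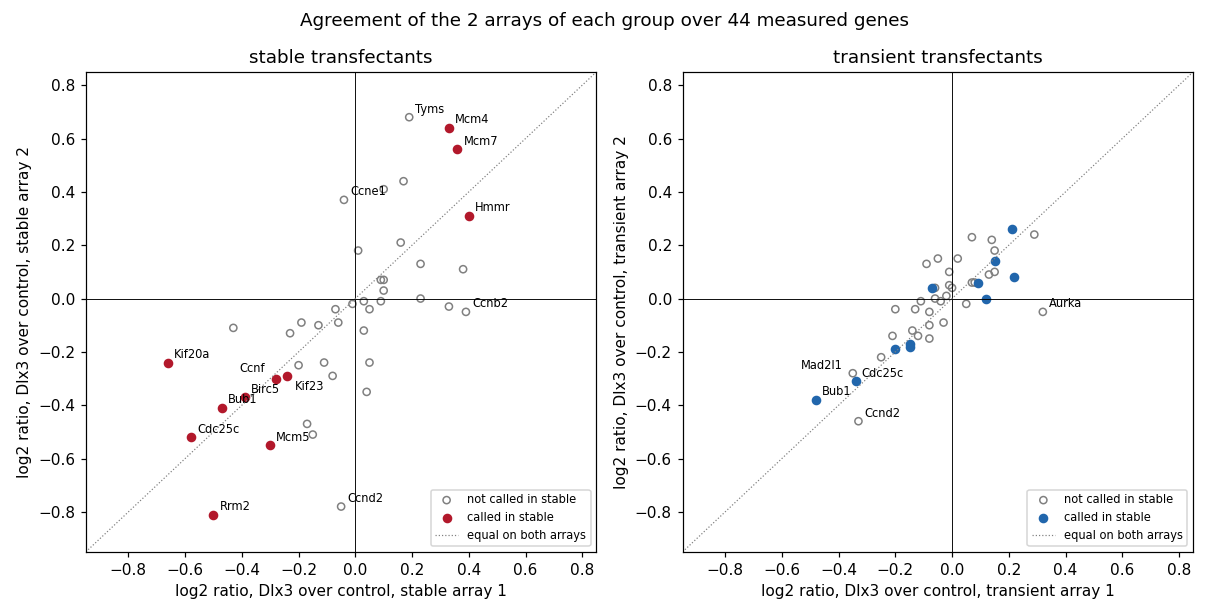
Log2 ratio on array 1 (horizontal axis) against array 2 (vertical axis) of the same group for the 44 genes, stable left and transient right. The correlation over the 44 genes was 0.681 in the stable panel and 0.819 in the transient panel, where the points span a narrower range.

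Among the 3 D-type and E-type cyclins tested, none was called in the stable cells, against 22.7% of all probes. Ccnd2 had stable ratios of -0.05 and -0.78 and transient ratios of -0.33 and -0.46. The stable arrays thus disagreed in size by more than their mean of -0.41 (adjusted p = 0.116 in limma). Ccne1 had stable ratios of -0.04 and 0.37, and Ccne2 of -0.23 and -0.13, in a block with medians of -0.16 and -0.11.

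Of 7 cyclins, kinases and phosphatases of S phase, G2 and mitosis, 2 fell in the stable cells, against 11.1% of all probes. Cdc25c, a phosphatase that activates Cdk1, had stable ratios of -0.58 and -0.52 and transient ratios of -0.34 and -0.31. All 4 ratios were below 0, and the stable mean of -0.55 (95% interval -0.73 to -0.37, 1.46-fold lower) had an adjusted p of 0.0105 in limma. Its spot gave 2500 and 2415 intensity units in the Dlx3 channel against 3930 and 3675 in the control channel. With print-tip loess the 4 ratios were -0.11, -0.24, 0.02 and 0.07 and the stable mean of -0.18 was not called (adjusted p = 0.143). Ccnf, an F-box protein that targets replication and mitotic proteins for breakdown, had stable ratios of -0.28 and -0.30 and transient ratios of -0.15 and -0.17. Its stable mean of -0.29 (adjusted p = 0.0385) was -0.22 with print-tip loess (adjusted p = 0.0933), and it lost its call when the second stable array was left out (-0.28, adjusted p = 0.0835). Cdk1, the kinase that drives mitosis, had stable ratios of -0.11 and -0.24, a mean of -0.18 (adjusted p = 0.144). Ccna2, the S phase cyclin, averaged -0.05 (adjusted p = 0.70), and Ccnb2, a mitotic cyclin, averaged 0.17, with 0.39 and -0.05 as its stable ratios. The probe described as related to Ccnb1 had stable ratios of -0.20 and -0.25 and a mean of -0.23 (adjusted p = 0.072), which was -0.34 and called with print-tip loess (adjusted p = 0.0303). Cdc25b, another CDC25 phosphatase, had stable ratios of 0.33 and -0.03.

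The licensing and helicase genes moved in both directions within a single complex. Mcm2 to Mcm7 form a ring of 6 different subunits that unwinds DNA at origins and forks. In the stable cells Mcm4 and Mcm7 rose and Mcm5 fell, while Mcm2, Mcm3 and Mcm6 were not called. Of all probes 11.6% were called higher there and 11.1% lower. Mcm4 had stable ratios of 0.33 and 0.64 and transient ratios of 0.21 and 0.26. All 4 arrays were above 0, and the stable mean was 0.48 (95% interval 0.25 to 0.71, 1.40-fold higher, adjusted p = 0.0217 in limma). Mcm7 had stable ratios of 0.36 and 0.56 and transient ratios of 0.15 and 0.14. Again all were above 0, with a stable mean of 0.46 (0.25 to 0.66, 1.37-fold higher, adjusted p = 0.0182). Mcm5 had stable ratios of -0.30 and -0.55 and transient ratios of 0.12 and 0.00. Only the stable arrays were below 0, with a mean of -0.42 (-0.65 to -0.20, 1.34-fold lower, adjusted p = 0.0264).

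Raw intensities showed the same directions. The Mcm4 spot gave 6980 and 8269 in the Dlx3 channel of the stable arrays, against 5976 and 5993 in the control channel. The Mcm7 spot gave 3491 and 1858 in the Dlx3 channel against 2890 and 1344 in the control channel. The Mcm5 spot gave 3581 and 2052 in the Dlx3 channel, against 4662 and 3155 in the control channel. With print-tip loess the stable means were 0.36 for Mcm4, 0.40 for Mcm7 and -0.35 for Mcm5, all called (adjusted p = 0.0346, 0.0349 and 0.0299). On the first stable array alone Mcm4 was 0.33 (adjusted p = 0.0618) and Mcm5 was -0.30 (adjusted p = 0.0868), and Mcm7 was 0.36, with p-values that rest on the spread of the transient arrays.

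Of the other helicase subunits, Mcm2 had stable ratios of 0.17 and 0.44 and transient ratios of 0.15 and 0.18. All 4 were above 0, with a stable mean of 0.31 (adjusted p = 0.0571 in limma). Mcm3 averaged 0.04 in the stable cells (adjusted p = 0.727) and Mcm6 -0.18 (adjusted p = 0.162). Mcm6 lies in block 25, with medians of -0.26 and -0.18 on the stable arrays, and averaged -0.02 with print-tip loess. Cdc6, which helps to load the ring, had stable ratios of -0.07 and -0.04, and Cdc45, which joins the ring in the active helicase, 0.23 and 0.00. Among licensing genes outside the 47, geminin fell in the stable cells, with stable ratios of -0.67 and -0.51 and transient ratios of -0.50 and -0.26. Its stable mean was -0.59 (1.51-fold lower, adjusted p = 0.0139), and -0.51 with print-tip loess (adjusted p = 0.0181), called under 14 of 14 alternatives. Mcm10, a fork protein that binds the ring, averaged -0.36 (adjusted p = 0.0255) on its brighter probe and -0.33 (adjusted p = 0.0408) on a second. Orc6, a subunit of the origin recognition complex, had stable ratios of -0.47 and -0.30 and transient ratios of -0.55 and -0.34. It lies in block 25, and its stable mean of -0.38 (adjusted p = 0.0325) was -0.18 with print-tip loess (adjusted p = 0.165). On the second stable array alone it was -0.30 (adjusted p = 0.0864).

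**Figure D4:**
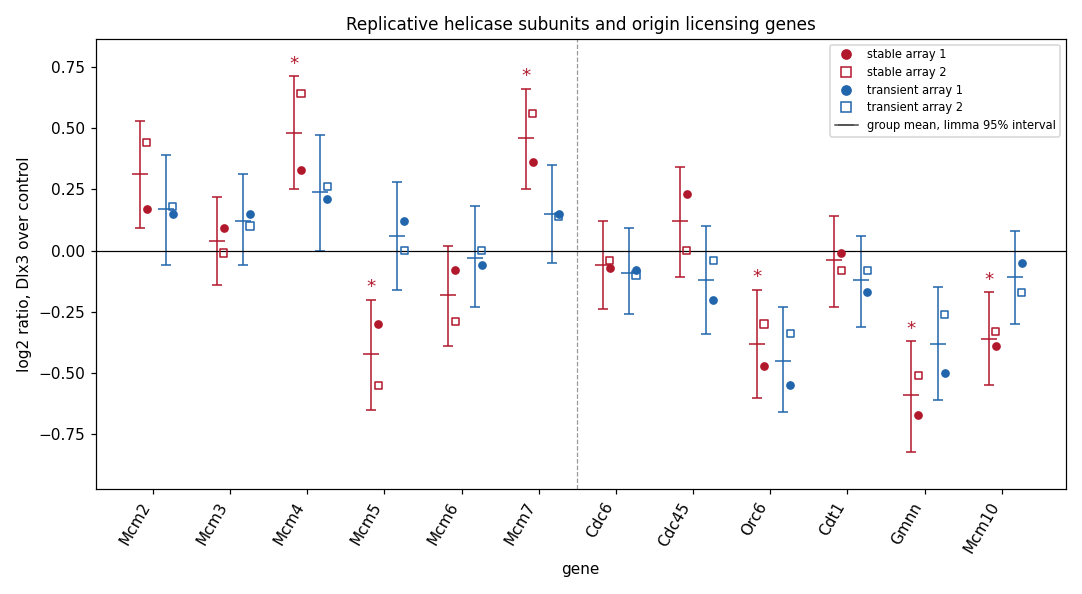
Log2 ratio of Dlx3 over control (vertical axis) of the helicase subunits Mcm2 to Mcm7 (left) and of Cdc6, Cdc45, Orc6, Cdt1, Gmnn and Mcm10 (right), stable before transient, with points for arrays and bars for the limma 95% interval of the group mean. Mcm4 and Mcm7 lie above 0 and Mcm5 below it in the stable cells, and Gmnn has the lowest stable mean of the right panel.

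Promoters of Mcm7 and Mcm5, called in opposite directions, are shown for the motifs that cell cycle genes are known to carry, together with Rrm2, which fell, and Bub1, which was called lower but not with print-tip loess (-0.06). RefSeq (GRCm38.p6) listed a promoter for 37 of the 46 genes, Mcm4 not among them, and the 250 bases before the start site were searched on both strands. The motifs were the CCAAT box (CCAAT), the CHR element (TTTGAA) and 4 forms of the E2F site (TTTCCCGC, TTTCGCGC, TTTGCCGC and TTTGGCGC), and matches may overlap. Capitals mark the matches. The Mcm7 window, chr5:138171884-138172133 on the minus strand, had 2 CCAAT boxes and 1 E2F site, and the Mcm5 window, chr8:75109259-75109508 on the plus strand, had 2 CCAAT boxes and 2 E2F sites that overlap each other. The Rrm2 window, chr12:24708004-24708253 on the plus strand, had 1 CCAAT box, and the Bub1 window, chr2:127831860-127832109 on the minus strand, had 2.
Mcm7: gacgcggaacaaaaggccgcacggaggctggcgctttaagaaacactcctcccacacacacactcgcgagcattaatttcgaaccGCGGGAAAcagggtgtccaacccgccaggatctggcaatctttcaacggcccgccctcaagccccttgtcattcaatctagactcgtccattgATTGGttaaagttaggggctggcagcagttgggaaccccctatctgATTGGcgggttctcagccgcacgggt
Mcm5: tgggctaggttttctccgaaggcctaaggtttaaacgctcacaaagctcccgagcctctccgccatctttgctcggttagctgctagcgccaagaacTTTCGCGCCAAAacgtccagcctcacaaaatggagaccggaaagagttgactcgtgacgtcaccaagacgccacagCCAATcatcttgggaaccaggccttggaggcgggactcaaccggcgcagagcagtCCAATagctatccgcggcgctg
Rrm2: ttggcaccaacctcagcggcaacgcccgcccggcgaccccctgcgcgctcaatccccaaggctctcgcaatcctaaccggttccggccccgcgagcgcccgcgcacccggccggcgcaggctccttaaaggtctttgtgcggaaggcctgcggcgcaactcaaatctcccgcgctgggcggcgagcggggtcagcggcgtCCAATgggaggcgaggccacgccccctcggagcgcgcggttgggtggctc
Bub1: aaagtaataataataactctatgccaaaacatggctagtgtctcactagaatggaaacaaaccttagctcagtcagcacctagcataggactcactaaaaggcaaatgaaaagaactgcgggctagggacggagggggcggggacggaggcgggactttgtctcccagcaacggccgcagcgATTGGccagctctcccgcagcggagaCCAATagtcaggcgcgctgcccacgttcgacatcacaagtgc

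Thus Mcm7, which rose, and Mcm5, which fell, carried the same kinds of match in these windows. Of the 37 promoters, 31 (83.8%) held a CCAAT box, against 33.8% of all 32851 listed promoters. The CHR element stood in 10 (27.0%, against 16.0%) and an E2F form in 6 (16.2%, against 1.86%), namely Cdc6, Cdk1, Mcm5, Mcm6, Mcm7 and Pola1. A match describes letters and is not a measured binding site.

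The 3 DNA synthesis genes were not called in the stable cells, where 22.7% of all probes were. Pcna, the sliding clamp of the replicative polymerases, had stable ratios of 0.10 and 0.41 and transient ratios of -0.06 and 0.04. The second stable array stood alone, and the mean was 0.25 (95% interval 0.01 to 0.49, adjusted p = 0.109 in limma). Prim1, a primase subunit, had stable ratios of 0.01 and 0.18 and Pola1, the catalytic subunit of polymerase alpha, 0.10 and 0.03.

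Among the 4 genes of deoxynucleotide supply, only Rrm2 was called in the stable cells, against 22.7% of all probes. It had the largest stable change of the 44 genes. Rrm2 is the small subunit of ribonucleotide reductase, which turns ribonucleotides into deoxynucleotides in S phase. It had stable ratios of -0.50 and -0.81 and transient ratios of -0.15 and -0.18. All 4 arrays were below 0, the stable ones further, with a stable mean of -0.66 (95% interval -0.89 to -0.42, 1.58-fold lower, adjusted p = 0.012 in limma). Its spot gave 5228 and 4179 intensity units in the Dlx3 channel of the stable arrays, against 7904 and 8061 in the control channel. The call held under all 14 alternatives tried, not all of them independent, print-tip loess included (-0.61, adjusted p = 0.0127). Its partner subunit Rrm1 had stable ratios of 0.23 and 0.13 and transient ratios of 0.07 and 0.06, all above 0 (stable mean 0.18, adjusted p = 0.128). Rrm1 lies in block 20, with medians of 0.12 and 0.14 on the stable arrays. With print-tip loess its stable mean was 0.05 (adjusted p = 0.643) and its transient ratios were -0.06 and -0.06. Tyms, which makes thymidylate, had stable ratios of 0.19 and 0.68 (mean 0.43, adjusted p = 0.0546). Tk1, the salvage kinase of thymidine, read -0.19 and -0.09 (mean -0.14, adjusted p = 0.214), and -0.29 with print-tip loess (adjusted p = 0.0454).

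Of 6 mitotic kinases and partners, Birc5 fell in the stable cells, where 11.1% of all probes were called lower. Birc5 (survivin) is a subunit of the chromosomal passenger complex with Aurkb and Cdca8. It had stable ratios of -0.39 and -0.37 and transient ratios of -0.07 and 0.04. Both stable arrays lay below both transient arrays, with a stable mean of -0.38 (95% interval -0.56 to -0.20, adjusted p = 0.0216 in limma) that was -0.47 with print-tip loess (adjusted p = 0.0181). Cdca8 (borealin) had stable ratios of -0.15 and -0.51, a mean of -0.33 (adjusted p = 0.066), and passed with print-tip loess at -0.37 (adjusted p = 0.0403). Aurkb, the kinase of the complex, had stable ratios of -0.01 and -0.02. The mitotic kinase Plk1 averaged 0.01, with an interval of -0.18 to 0.19. Aurka and Tpx2, its activator, read 0.05 and -0.04, and 0.04 and -0.35, on the stable arrays.

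Of 5 tested genes of the spindle checkpoint and the anaphase-promoting complex, Bub1 fell in the stable cells, as did 11.1% of all probes. Bub1, a checkpoint kinase at kinetochores, had stable ratios of -0.47 and -0.41 and transient ratios of -0.48 and -0.38. The 2 groups overlapped, all 4 values being well below 0, and the stable mean was -0.44 (95% interval -0.62 to -0.25, 1.35-fold lower, adjusted p = 0.0171 in limma). Its spot gave 1902 and 4253 units in the Dlx3 channel of the stable arrays, against 2768 and 6208 in the control channel. It lies in block 29, and with print-tip loess the 4 ratios were -0.01, -0.11, -0.13 and 0.00 and the stable mean of -0.06 was not called (adjusted p = 0.574). Mad2l1, its checkpoint partner, had stable ratios of -0.43 and -0.11 and transient ratios of -0.35 and -0.28. Its stable mean of -0.27 had an adjusted p of 0.0924. Cdc20 had stable ratios of -0.17 and -0.47 and transient ratios of 0.05 and -0.02. The stable mean of -0.32 was not called (adjusted p = 0.0587), and with print-tip loess it was -0.46 and called (adjusted p = 0.0285). Ube2c, the complex's ubiquitin-conjugating enzyme, had stable ratios of 0.09 and 0.07. Cdca3, which promotes mitotic entry, had stable ratios of -0.13 and -0.10 and transient ratios of -0.25 and -0.22. It lies in block 25 and averaged 0.10 in the stable cells with print-tip loess (adjusted p = 0.354).

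Among 6 kinetochore, spindle and motor genes, Hmmr rose and the kinesins Kif20a and Kif23 fell in the stable cells. Of all probes 11.6% were called higher there and 11.1% lower. Hmmr, a hyaluronan receptor that also binds spindle microtubules, had stable ratios of 0.40 and 0.31 and transient ratios of 0.22 and 0.08. All 4 were above 0, with a stable mean of 0.35 (95% interval 0.16 to 0.55, adjusted p = 0.0285 in limma) that was 0.33 with print-tip loess (adjusted p = 0.033). Leaving out the first or the second stable array gave 0.31 or 0.40 (adjusted p = 0.059 and 0.0515), neither called. Kif20a, a kinesin of cytokinesis, had stable ratios of -0.66 and -0.24 and transient ratios of -0.20 and -0.19. Its first stable array stood apart, and the mean of -0.45 (adjusted p = 0.036) was not called without that array (-0.24, adjusted p = 0.0798) or with print-tip loess (-0.30, adjusted p = 0.0948). Kif23, the kinesin of the central spindle, had stable ratios of -0.24 and -0.29 and transient ratios of 0.09 and 0.06. Its mean of -0.26 passed narrowly (adjusted p = 0.0494), kept its call with print-tip loess (-0.29, adjusted p = 0.0405) and lost it when either stable array was left out (-0.29 or -0.24, adjusted p = 0.0536 and 0.116). Racgap1, which joins Kif23 in the central spindle and is outside the 47, averaged -0.48 (adjusted p = 0.014), and -0.48 with print-tip loess (adjusted p = 0.0204).

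Kif11, the kinesin that separates spindle poles, had stable ratios of 0.05 and -0.24 and transient ratios of 0.29 and 0.24. Only the transient arrays were both above 0. Cenpa, the histone H3 variant of centromeres, averaged 0.25 in the stable cells (adjusted p = 0.0985 in limma), and Cenpf read -0.06 and -0.09. The 2 chromatin genes used to mark dividing cells were not called in the stable cells, against 22.7% of all probes. Top2a, which untangles DNA, averaged 0.08 in the stable cells (95% interval -0.09 to 0.26), and Mki67, the Ki-67 antigen, averaged 0.19 (0.01 to 0.37, adjusted p = 0.11). With print-tip loess Mki67 was 0.27 and called (adjusted p = 0.0456).

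In the transient arrays limma called 0 of the 44 genes, against 0.144% of all 14613 tested probes. At an unadjusted p under 0.05 there were 6, with 2 higher and 4 lower, against 20.2% of all probes. The median log2 ratio was -0.01 and the median absolute ratio 0.11, both close to those of all probes (0.001 and 0.11). The lowest adjusted p belonged to Bub1 (mean -0.43, adjusted p = 0.0735). When the transient arrays were fitted alone, a fit that called 8.81% of all probes, 4 of the 44 were called, all lower, namely Bub1, Cdc25c (-0.32, adjusted p = 0.0409), Ccnd2 (-0.39, adjusted p = 0.0349) and Mad2l1 (-0.31, adjusted p = 0.0443). With print-tip loess, the transient means were -0.06 for Bub1, 0.04 for Cdc25c, -0.40 for Ccnd2 and -0.29 for Mad2l1, none called. Both transient arrays gave the same sign for 33 of the 44 (75.0%), against 72.7% of all probes.

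The difference between the stable and the transient ratios was also tested, and limma called 0 of the 44 genes, against 0.24% of all 14611 probes. At an unadjusted p under 0.05 there were 7, with Mcm7 higher in the stable cells (difference 0.31, 95% interval 0.02 to 0.59) and 6 lower, against 19.5% of all probes. The 6 were Rrm2 (-0.49, -0.82 to -0.16), Mcm5 (-0.48, -0.80 to -0.17), Birc5 (-0.37), Kif11 (-0.36), Kif23 (-0.34) and Cdc20 (-0.33). The lowest adjusted p was 0.169. Without the first stable array, a fit that called 9.21% of all probes, 4 of the 44 were called, Mcm5 (-0.61), Rrm2 (-0.64) and Kif11 (-0.50) lower and Tyms (0.59) higher. The absolute ratio was larger in the stable than in the transient cells for 31 of the 44 genes. Over all probes too the median absolute ratio was larger in the stable cells, 0.18 against 0.11. The share of all probes with the larger stable ratio was not counted. For Bub1 the difference was -0.01, with an interval of -0.27 to 0.26.

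The mean of all 4 arrays was tested against 0. A change in the stable cells alone can pass this test, and a dye effect of a probe does not cancel in it. Birc5 passed although its transient ratios lay on both sides of 0. It called 11 of the 44 genes, against 22.3% of all probes, and 18 at an unadjusted p under 0.05, against 39.5%. Mcm2, Mcm4, Mcm7 and Hmmr were higher (11.1% of all probes were) and Ccnf, Cdc25c, Rrm2, Birc5, Bub1, Mad2l1 and Kif20a were lower (11.3%), and 9 of these were also called in the stable cells. Mcm2 averaged 0.24 (adjusted p = 0.0464 in limma) and Mad2l1 -0.29 (adjusted p = 0.0324). With print-tip loess the calls were 9 (against 13.0% of all probes), and Rrm2 (-0.38), Mcm4 (0.26), Hmmr (0.21), Birc5 (-0.29) and Mad2l1 (-0.29) were called both ways, 5 of 44 (11.4%) against 10.5% of all probes. With each array centred on its median in place of loess the split was 2 higher and 17 lower, and with the authors' processed values it was 2 higher and 14 lower, against 4 higher and 7 lower here. Over all probes median centring called 1685 higher and 2189 lower, and the authors' values 1723 and 1867, against 1615 and 1644 here. The sign was the same on all 4 arrays for 22 of the 44, against 39.7% of all probes. Of those, 8 were positive (Mcm2, Mcm4, Mcm7, Pola1, Rrm1, Tyms, Ube2c and Hmmr) and 14 negative (Ccnd2, Ccne2, Ccnf, Cdk1, Cdc25c, Cdc6, Rrm2, Tk1, Aurkb, Cdca8, Bub1, Mad2l1, Cdca3 and Kif20a). These signs are those of the loess over the whole array, and their share with print-tip loess was not counted. Among these genes, Pola1, Rrm1, Tyms, Ccne2 and Cdc25c no longer had the same sign on all 4 arrays with print-tip loess. Mcm2, Mcm4, Mcm7, Ccnd2, Ccnf, Cdk1, Cdc6, Rrm2 and Tk1 kept theirs.

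Regulators and partners of these genes were read from a list of 127 further genes, of which 104 were tested and 3 had a probe too dim to test. The list was chosen by function with earlier results of these data known, so its shares are no independent test. In the stable cells 33 were called, 14 higher and 19 lower, against 22.7% of all probes. Of the 33, 26 were also called with print-tip loess, 25.0% of the 104 against 14.0% of all probes. With the authors' processed values the split was 10 higher and 22 lower (21.9% of all probes were called). With scaling between arrays it was 9 and 9 (13.5%). In the transient cells limma called 0, against 0.144% of all probes, with 20 at an unadjusted p under 0.05, against 20.2%. When the stable arrays were fitted alone, 10 were called in the stable cells, against 8.4% of all probes. Leaving out either transient array gives this same stable fit.

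CDK inhibitors, which restrain the G1 kinases, were higher in the stable cells for 5 of 8 tested (11.6% of all probes were) and lower for 0 (11.1% were), with a median log2 ratio of 0.44. Cdkn1c (p57) had the largest value. It had stable ratios of 2.0 and 2.92 and transient ratios of 0.51 and 0.55. The stable ratios stood far above the transient ones, with a stable mean of 2.46 (5.50-fold higher, adjusted p = 0.00453 in limma). Its spot gave 4251 and 10425 intensity units in the Dlx3 channel of the stable arrays, against 1172 and 1584 in the control channel. The difference between the groups, 1.93, was not called (adjusted p = 0.0793). Cdkn2a, the locus of p16 and p19Arf, had stable ratios of 0.64 and 0.53 and transient ratios of 0.38 and 0.41. All 4 were above 0 (stable mean 0.58, adjusted p = 0.0101). Cdkn1b (p27) had stable ratios of 0.43 and 0.56 and transient ratios of 0.49 and 0.50. The 2 groups overlapped, with means of 0.50 in each (adjusted p = 0.0139 stable, 0.0708 transient), on a probe no brighter than the randomized oligonucleotides. Cdkn2c (p18) had stable ratios of 0.35 and 0.67 and transient ratios of 0.42 and 0.48 (stable mean 0.51, adjusted p = 0.0202), and Cdkn2b (p15) averaged 0.39 in the stable cells (adjusted p = 0.0236). These 5 were also called with print-tip loess, and Cdkn1c, Cdkn2a and Cdkn1b under every alternative run, whereas Cdkn2c on the first stable array alone, at 0.35, was not (adjusted p = 0.0555). Cdkn1a (p21) had stable ratios of 0.69 and -0.78, which opposed each other, and was not called. Cdkn3, a phosphatase of CDKs, had stable ratios of -0.18 and -0.53 and transient ratios of -0.34 and -0.24 (stable mean -0.35, adjusted p = 0.0531).

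The G1 kinases and the E2F machinery split. Of 17 tested, 4 rose and 5 fell in the stable cells, against 11.6% of all probes called higher and 11.1% called lower. Cdk4, the kinase partner of D-type cyclins, had stable ratios of 0.44 and 0.89 and transient ratios of 0.14 and 0.15. All 4 were above 0 (stable mean 0.66, 1.59-fold higher, adjusted p = 0.0171 in limma), and its call held under 14 of 14 alternatives (print-tip mean 0.68, adjusted p = 0.0352). Cdk2 averaged 0.39 (adjusted p = 0.039) and Cdk6 0.33 (adjusted p = 0.0439), the second not called with print-tip loess (adjusted p = 0.0676). Rb1, the retinoblastoma protein, had stable ratios of 0.82 and 0.26 and transient ratios of 0.47 and 0.21. Its first stable array was the highest, and its mean of 0.54 (adjusted p = 0.0449) was 0.48 with print-tip loess (adjusted p = 0.0682). Foxm1, an activator of mitotic genes, had stable ratios of -0.28 and -0.80 and transient ratios of -0.23 and 0.04. The second stable array was the lowest, and the mean was -0.54 (adjusted p = 0.0386). Ccnd3 (-0.48, adjusted p = 0.0479), E2f3 (-0.41, adjusted p = 0.0182), Tfdp1, the DNA-binding partner of E2F (-0.35, adjusted p = 0.0308), and Lin9, a MuvB subunit (-0.32, adjusted p = 0.0301), were the other genes that fell. Tfdp1 lies in block 30 and was not called with print-tip loess (-0.14, adjusted p = 0.215). Of these 9 genes, 7 lost their call when a stable array was left out. Without the second array Cdk2 was 0.22, Ccnd3 -0.20, Foxm1 -0.28 and Lin9 -0.30, and without the first Cdk6 was 0.22, Rb1 0.26 and Tfdp1 -0.26. Probes of Rb1, Foxm1, E2f3 and Lin9 were no brighter than the randomized oligonucleotides.

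**Figure D5:**
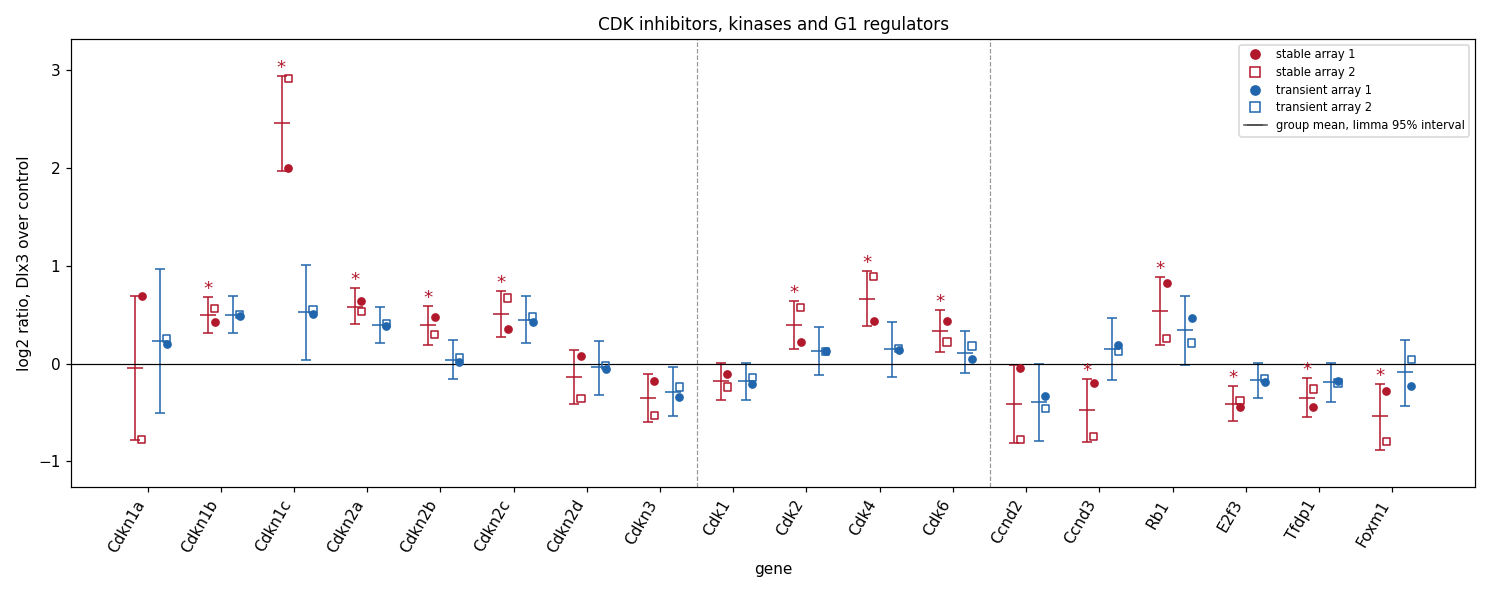
Log2 ratio of Dlx3 over control (vertical axis) of 8 CDK inhibitors, of Cdk1, Cdk2, Cdk4 and Cdk6, and of 6 further G1 and E2F genes, stable before transient, with points for arrays and bars for the limma 95% interval of the group mean. Cdkn1c stands apart in the stable cells, the 2 arrays of Cdkn1a oppose each other, and Cdk1 lies below 0 on all 4 arrays while Cdk4 lies above it.

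Replication accessory genes were called lower for 4 of 35 tested in the stable cells and higher for 0, against 11.1 and 11.6% of all probes. Among them were Gmnn, Orc6 and Mcm10, given above. Mitotic accessory genes were lower for 7 of 34 and higher for 3, against the same shares. Ect2, an activator of cytokinesis that Racgap1 binds, had stable ratios of -0.54 and -0.57 and transient ratios of -0.44 and -0.35. All 4 were below 0 (stable mean -0.55, adjusted p = 0.0105 in limma), but the probe lies in block 29 and its print-tip mean was -0.20 (adjusted p = 0.128). Cenpn, a centromere protein, had stable ratios of -0.45 and -0.54 and transient ratios of -0.33 and -0.51. It lies in block 29 as well, and its stable mean of -0.49 (adjusted p = 0.0158) was -0.12 with print-tip loess (adjusted p = 0.392). Pkmyt1, a kinase that inhibits Cdk1, had stable ratios of 0.44 and 0.53 and transient ratios of 0.16 and 0.16. All were above 0, with a stable mean of 0.49 (adjusted p = 0.0136) and a print-tip mean of 0.34 (adjusted p = 0.0288). Wee1, the other inhibitory kinase of Cdk1, averaged 0.42 (adjusted p = 0.0181), and 0.34 with print-tip loess (adjusted p = 0.0331).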

How the data were processed

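The deposited scanner tables give, per the file headers, the intensity of each of 17664 spots and of its surroundings (GenePix Pro 5.0.0.49, 32 blocks), not normalized, and the percent of saturated pixels per spot. The authors' processed values, a signed score in the deposited value table with medians of -1.001 to -1.007, carry no stated scale or centring. They behaved as minus the ratio of control over Dlx3 (correlation with the scanner ratios 0.862 to 0.957 after conversion) and served as an alternative.

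Ratios came from limma 3.58.1 (R 4.3.3): normexp with an offset of 50, global loess per array with control spots at weight 0, and 1009 control spots then left out. The model (lmFit, eBayes) had a mean per group and took in all 4 arrays (2 residual and 4.2 prior degrees of freedom). P-values are two-sided and Benjamini-Hochberg adjusted over all tested probes. The number of arrays limits the precision. On simulated data the fit recovered 92% of stable changes of 0.5 (log2) and 100% of changes of 1, with 12 false calls among 14609 probes. The simulated noise was independent and normal, with equal spread in both groups and no dye or block effect. Only 50 probes were changed at each size, against 3320 called in the stable cells. These rates therefore need not hold on the real arrays. Tables and plots used Python 3.11.15, pandas 2.3.3 and matplotlib 3.10.9.

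The genes and lists were chosen with earlier results of these data known. Values per array are given for genes called in a contrast and for the largest ratios of each role, and, of the further genes, for at most the 12 largest called ratios per contrast. Others among the further genes (Cdk2, Cdk6, Cdkn1a, Cdkn2b, Ccnd3, E2f3, Tfdp1, Lin9, Mcm10, Racgap1, Wee1, Timeless, Atm, Rad17 and Brca1) were named after their values were seen. The brightest probe stands for a gene. Not every called gene of the further list is reported here. Alternatives covered background, normalization, filter, variance model, naming and left-out arrays.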

Additional observations from a re-analysis of the deposited data

How the results depend on the processing

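Dlx3 and control RNA were compared within each array, but stable arrays could not be paired with transient ones. The labels give the arrays no replicate numbers that groups share. The share of all probes called moved as well. In the stable cells it was 22.7% in the main fit, 14.2% with plain background subtraction, 13.5% with scaling and 8.4% fitted alone. In the transient cells it was 0.144%, 4.43% with median centring, 10.9% with scaling, 8.81% fitted alone and 1.57% with the authors' values. For the mean of 4 arrays it was 22.3%, 17.3% with plain subtraction and 26.5% with median centring. Print-tip loess gave 13.0% there and the authors' values 25.3%. For stable minus transient the share was 0.24%, 0.602% with median centring and 0.39% with scaling. Over all probes, leaving out a transient array lowered the shares of these last 2 contrasts, and leaving out a stable array raised them. The count of 11 called cell cycle genes in the stable cells was 6 with plain background subtraction, 7 with scaling between arrays, 3 with the stable arrays alone and 3 to 16 with an array left out, and their median ratio then ranged from -0.073 to 0.004. The 33 further genes called there were 20, 18, 10 and 10 to 40 under the same alternatives. In the transient cells, 0 calls became 4 with median centring, 3 with scaling, 4 with the transient arrays alone and 0 to 4 with an array left out. For the further genes they became 6, 12, 13 and 0 to 13, and 1 with the authors' values. The transient median of -0.011 was -0.145 with median centring, -0.099 with the authors' values and -0.049 to 0.003 with an array left out. For stable minus transient, 0 calls became 0 to 4 without an array, and for the further genes 1 with median centring, 1 with scaling and 0 to 8 without an array. For the mean of 4 arrays, the 11 calls became 7 with plain subtraction, 19 with median centring and 0 to 19 without an array. The 29 calls among the further genes (13 higher, 16 lower) became 17 with print-tip loess (11 and 6), 1 to 43 without an array, 35 with median centring (8 and 27) and 32 with the authors' values (9 and 23). The median over the cell cycle genes there, -0.035, was -0.106 with median centring and -0.094 with the authors' values. Dnmt1, at -0.19 over 4 arrays and in block 30, reversed to 0.01 with print-tip loess (adjusted p = 0.9 in limma). An array left alone in its group is assumed to vary like those of the other group, and the cause of the other changes was not tested. No called cell cycle gene changed sign in the stable cells under the alternatives run. Rrm2 kept its call in 14 of 14, Cdc25c and Bub1 in 13 of 14, Mcm7 and Birc5 in 11, Mcm4 in 10, Mcm5 in 9, Hmmr and Kif20a in 7, Ccnf in 6 of 13 and Kif23 in 2 of 13. Fitting the stable arrays alone and leaving out either transient array give the same stable fit, so these tallies count it more than once. Cdc25c and Bub1 lost their calls with print-tip loess, which takes out block medians, while Mcm4, Mcm5, Mcm7 and Birc5 kept theirs with it. Dim signal limits Ccnd1 and Bub1b, which gave no test.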

Other observations

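Replication and DNA damage checkpoint genes, which hold the cycle when forks stall or DNA breaks, were called in the stable cells for 5 of 10 tested, 2 higher and 3 lower, against 22.7% of all probes. Rad9a, a subunit of the clamp that activates the checkpoint kinases, had stable ratios of -0.92 and -0.53 and transient ratios of -0.31 and -0.29. All 4 were below 0, with a stable mean of -0.73 (1.65-fold lower, adjusted p = 0.012 in limma). Its probe lies in block 29, and with print-tip loess the mean was -0.37 and still called (adjusted p = 0.0366). Rad17, which loads that clamp, averaged -0.29 (adjusted p = 0.0444) and Brca1, a repair protein, -0.29 (adjusted p = 0.0407), both on probes no brighter than the randomized oligonucleotides. Leaving out the first or the second stable array gave -0.22 or -0.35 for Rad17 and -0.30 or -0.28 for Brca1, none called. Timeless, a fork protection protein, had stable ratios of 0.39 and 0.47 (mean 0.43, adjusted p = 0.0171). Atm, the kinase that responds to double-strand breaks, averaged 0.31 (adjusted p = 0.0326), but its second probe averaged 0.13 (adjusted p = 0.218) and print-tip loess gave 0.25 (adjusted p = 0.0621), and 0.29 was left without the second stable array (adjusted p = 0.0777). In the transient cells limma called 0 of the 10, against 0.144% of all probes, with 2 at an unadjusted p under 0.05, against 20.2%.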
